A study of Mus musculus with 4 samples.

Results

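The clustered replication-dependent histone genes were taken as every entry of the 2 gene tables with a symbol that opens with Hist1h, Hist2h, Hist3h or Hist4h, which gave 68 of 23351 entries in each table. By class they were 6 H1, 18 H2A, 19 H2B, 12 H3 and 13 H4 entries. By cluster they were 54 Hist1 entries on chromosome 13, 10 Hist2 entries on chromosome 3, 3 Hist3 entries on chromosome 11 and 1 Hist4 entry on chromosome 6. Their RNA was measured in Achilles tendon of male Scx-EGFP mice, homozygous for a reporter in which green fluorescent protein follows the tendon transcription factor Scx, on a C57BL/6 background. There were 4 groups and 1 pooled library in each. The 7-day tenotomy pool held RNA of 11 mice whose right tendon was cut, and the 7-day sham pool held RNA of 11 mice with a sham operation on the left hindlimb. The 6-month tenotomy pool held RNA of 9 mice and the 6-month sham pool RNA of 5 mice, operated on the same sides. RNA was taken 5 days after the operation in every group, and after tenotomy it came from the distal stump, freed of surrounding connective tissue. The labels do not settle whether 7 days and 6 months were the ages at operation or at harvest, and those of the cut tendons also call them uninjured. With 1 pool per group no difference has a replicate check, and no test was made.

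Replication-dependent histone genes supply the H2A, H2B, H3 and H4 proteins that make the nucleosome core and the H1 proteins that bind the linker DNA between cores. They lie in clusters, have almost no introns and are transcribed mainly in S phase, when new DNA has to be packaged. Their mRNAs end in a short stem-loop instead of a poly(A) tail; SLBP (stem-loop binding protein) holds that stem-loop and takes part in 3′ end formation, translation and decay. When DNA synthesis stops, these mRNAs are quickly degraded, so their level is widely used as a sign of cells in S phase. Some members are also known to give polyadenylated mRNAs in differentiated cells. These libraries were made after ribosomal RNA depletion, not by selection of poly(A) RNA, so transcripts without a tail were open to measurement.

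FPKM is the number of sequenced fragments scaled to the length of the gene model and to the depth of the library. The low values of single-exon entries were whole multiples of what 1 fragment is worth, which placed the libraries at about 3260000 fragments for 7-day tenotomy, 2660000 for 7-day sham, 2430000 for 6-month tenotomy and 1800000 for 6-month sham. Fragments could be counted in this way for 64 of the 68 members, which include the 10 members at 0 in all 4 libraries. For large values a gap of 0.3% was allowed, so high counts are rounded and not checked as whole. For Hist1h1c in the 7-day tenotomy library 508.48 was taken as 508. Together these 64 members held 3260 fragments after tenotomy and 2241 after sham at 7 days, and 1472 fragments after tenotomy and 654 after sham at 6 months. Among countable members above 0, the median was 32 fragments in the 7-day tenotomy library and 19 in the 7-day sham library. It was 13 fragments in the 6-month tenotomy library and 4 in the 6-month sham library, where 18 members rested on 1 to 3 fragments. In a typical H4 model a single fragment was worth 2.46 FPKM after tenotomy and 2.87 FPKM after sham at 7 days, and 3.42 FPKM after tenotomy and 4.56 FPKM after sham at 6 months. Intervals given below are 95% intervals that cover counting error only, not the spread between mice.

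Of the 9 tenocyte markers (such as Scx, Tnmd and Col1a1) none was at 0 in any library. Their summed FPKM was 22034.5 after tenotomy and 35029 after sham at 7 days, and 9541 after tenotomy and 11163 after sham at 6 months. Col1a1 gave most of the 7-day sums (13214.5 FPKM after tenotomy and 22438 after sham). Of the 9 markers, 2 were at least 2-fold higher after tenotomy and 1 lower at 7 days, and 1 higher and 4 lower at 6 months. Other cell types differed between the pools. The 12 mature muscle markers summed to 40.6 FPKM after tenotomy and 20874.5 after sham at 7 days, and to 12220 FPKM after tenotomy and 39564 after sham at 6 months. All 12 were at least 2-fold lower after tenotomy at both ages, and none was at 0. The 11 macrophage markers found summed to 1083 FPKM after tenotomy and 421 after sham at 7 days, and to 1920 FPKM after tenotomy and 509 after sham at 6 months. Of these, 8 at 7 days and 11 at 6 months were at least 2-fold higher after tenotomy, and none was at 0. The 10 neutrophil markers summed to 84.7 FPKM after tenotomy and 23.1 after sham at 7 days, with 0 of them at 0 after tenotomy and 2 after sham. At 6 months they summed to 133 FPKM after tenotomy and 26.7 after sham, with 2 at 0 after tenotomy and 1 after sham. The 7 endothelial markers summed to 270 FPKM after tenotomy and 167 after sham at 7 days, and to 111 FPKM after tenotomy and 65.3 after sham at 6 months. The 7 erythroid markers found summed to 91.8 FPKM after tenotomy and 261 after sham at 7 days, and to 16.7 FPKM after tenotomy and 26.0 after sham at 6 months. The 8 skin and hair markers summed to 14.0 FPKM after tenotomy and 144 after sham at 7 days, and to 2.62 FPKM after tenotomy and 14.96 after sham at 6 months. The 8 lymphocyte markers summed to at most 8.15 FPKM in any library. The 7 chondrocyte markers summed to 250.4 FPKM after tenotomy and 337 after sham at 7 days. At 6 months they summed to 64.5 FPKM after tenotomy and 145 after sham. Their directions at 7 days were mixed. Acan (152.9 FPKM after tenotomy, 37.2 after sham), Sox9 (11.4 and 3.41) and Col9a1 (5.13 and 0.810) passed 2-fold upward. Col2a1 (31.7 and 110) and Col11a2 (44.3 and 182) passed it downward. Over the 5 markers that reached 5 FPKM, the median log2 ratio was 1.49 at 7 days and -1.29 at 6 months. The part of these cell types in the histone values was not tested, and in a bulk pool fewer cells of a type and less RNA per cell cannot be told apart.

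The 3′ stem-loop is shown first because it is the feature by which these mRNAs are processed and degraded together. It was searched in GENCODE M21 transcripts (GRCm38) within 100 bases after the stop codon, as 2 arms of 6 bases that are reverse complements, the first opening with GG, around a loop of 4 bases. Of 67 coding members with a transcript, 45 held such a stem-loop, which began 22 to 59 bases after the stop codon, with a median of 32. Another 15 had fewer than 16 annotated bases after the stop codon and could not hold it. The remaining 7 (Hist1h1a, Hist1h2bc, Hist1h2bp, Hist1h2bq, Hist1h2br, Hist2h2be and Hist2h3b) had 16 bases or more and no match, which says only that these letters are not in that window. The stem is written in capitals and the loop in lower case, 5′ to 3′, for a member of each of 8 forms found.
Hist1h1c: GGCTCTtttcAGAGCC
Hist1h3c: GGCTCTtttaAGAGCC
Hist1h3g: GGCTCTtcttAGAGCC
Hist2h2ac: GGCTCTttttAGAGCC
Hist1h4d: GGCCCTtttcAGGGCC
Hist2h4: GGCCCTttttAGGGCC
Hist1h4j: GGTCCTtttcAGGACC
Hist1h4a: GGCCCTtctcAGGGCC
These sites lay at chr13:23739512-23739527 (plus strand), chr13:23745047-23745062 (minus strand), chr13:23535889-23535904 (plus strand), chr3:96220418-96220433 (minus strand), chr13:23581950-23581965 (plus strand), chr3:96262939-96262954 (minus strand), chr13:21735437-21735452 (plus strand) and chr13:23760800-23760815 (minus strand). The Hist1h1c form was shared by 25 members of the H1, H2A, H2B and H3 classes, and the Hist1h3c form by 6 members of H1, H2B and H3. The Hist1h4d form was found in 7 members, all of them H4. Every stem-loop found outside the H4 class had the GGCTCT arm, and every H4 stem-loop had GGCCCT or, in Hist1h4b and Hist1h4j, GGTCCT. The interval over which the authors' table lists a gene holds the stem-loop in 22 of 44 members with a placed site and does not hold it in the other 22. In 30 members that interval was as wide as the coding sequence alone, so for Hist1h4d, Hist1h4c and Hist1h2bm, among others, the values describe coding sequence only.

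The sum of clustered histone mRNA was higher after tenotomy than after sham at both ages. The ratio of the summed values was 1.24 at 7 days (1.15 to 1.33) and 1.87 at 6 months (1.65 to 2.12). All 68 members together gave 3506 FPKM after tenotomy and 2835 FPKM after sham at 7 days. At 6 months they gave 2186 FPKM after tenotomy and 1169 FPKM after sham, the lowest of the 4 pools. On the log2 scale the ratio was 0.31 at 7 days and 0.90 at 6 months, a difference of -0.60 (-0.80 to -0.39) for 7 days minus 6 months. Over all entries at or above 5 FPKM in either library of an age, the median log2 ratio was 0.01 at 7 days and -0.03 at 6 months. Where the libraries were rescaled to a common sum of all FPKM, that median moved by 0.16 at 7 days, and where muscle, hair, small RNA and mitochondrial entries were left out of the sum it moved by 0.24 at 6 months. Relative to the median of all entries, the log2 ratio of the histone sum was then 0.30 at 7 days and 0.92 at 6 months. No scaling tried turned the direction at either age.

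**Figure D1:**
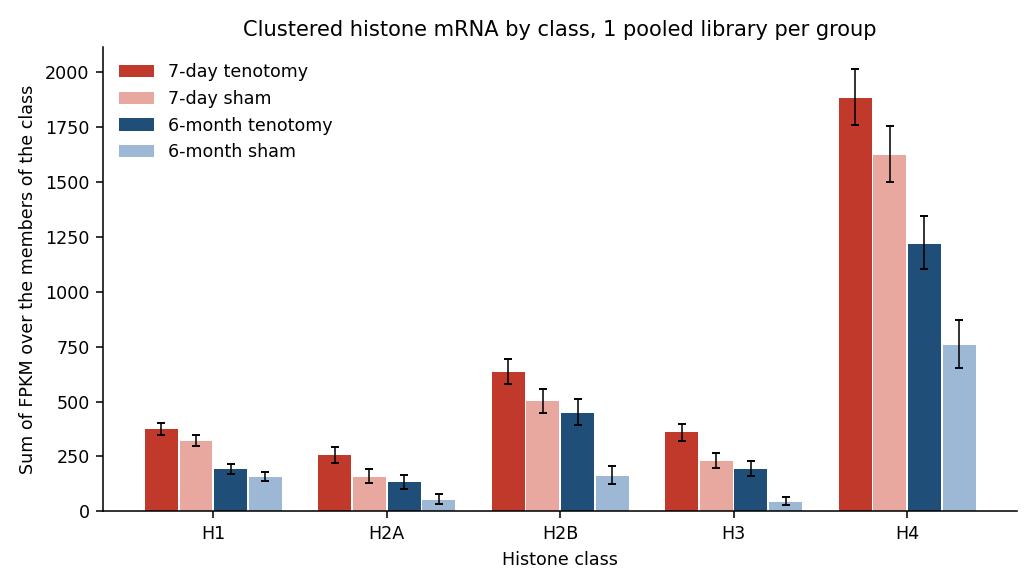
Bars give the sum of FPKM over the members of each histone class in each pooled library, and black lines the 95% interval for counting error only. In every class the tenotomy bar stands above the sham bar of the same age, and H4 is the highest class in all 4 libraries (1883 FPKM after tenotomy and 1624 FPKM after sham at 7 days, 1219 FPKM after tenotomy and 756 FPKM after sham at 6 months).

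The classes did not share a single ratio. H3 showed the largest ratio of the sums at 6 months, 4.42 (2.82 to 7.21), with 194 FPKM after tenotomy and 43.1 FPKM after sham, against a ratio of 1.56 (1.30 to 1.88) at 7 days, with 359 FPKM after tenotomy and 230 FPKM after sham. H2B had 450 FPKM after tenotomy and 162 FPKM after sham at 6 months, a ratio of 2.76 (2.08 to 3.71), and 634 FPKM after tenotomy and 501 FPKM after sham at 7 days, a ratio of 1.27 (1.10 to 1.46). H2A had a ratio of 2.59 (1.58 to 4.44) at 6 months, from 132 FPKM after tenotomy and 50.2 FPKM after sham, and of 1.61 (1.26 to 2.06) at 7 days, from 254 FPKM after tenotomy and 158 FPKM after sham. The lowest ratios were those of H4 and H1. For H4 they were 1.61 (1.35 to 1.93) at 6 months and 1.16 (1.05 to 1.29) at 7 days. For H1 they were 1.22 (1.03 to 1.44) at 6 months, from 192 FPKM after tenotomy and 157 FPKM after sham, and 1.16 (1.04 to 1.30) at 7 days, from 375 FPKM after tenotomy and 322 FPKM after sham. Without Hist1h4d the log2 ratio of the H4 sum at 7 days was 0.08 in place of 0.21. At that age 7 of 12 measured H4 members stood above sham and 5 below, so the small H4 difference rested largely on that gene. H4 made up 53.7% of the histone FPKM after tenotomy and 57.3% after sham at 7 days, and 55.8% after tenotomy and 64.7% after sham at 6 months. H3 made up 10.3% of it after tenotomy and 8.12% after sham at 7 days, and 8.86% after tenotomy and 3.68% after sham at 6 months. The level of a member with a short model also depends on how the authors' software corrects for model length.

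Of the members, 47 reached 5 FPKM in either library at 7 days and 43 did so at 6 months. A member was counted as higher or lower at a 2-fold difference of FPKM + 1. At 7 days 4 of 47 members were higher after tenotomy and 0 were lower, against 5.55% of all measured entries higher and 10.3% lower. At 6 months 27 of 43 members were higher after tenotomy and 0 were lower, against 9.62% of all measured entries higher and 11.9% lower. The floor could be reached in the tenotomy library alone, as by Hist1h2bm at 6 months (41.8 FPKM after tenotomy and 2.95 FPKM after sham). A member admitted in that way always stands above sham, so part of the count of higher members follows from the floor. Counts over members at the floor in sham were not made. At any size of difference, 38 of 47 members stood above sham at 7 days and 39 of 43 at 6 months, against 51% of all measured entries at 7 days and 48.4% at 6 months. The median log2 ratio of the members was 0.38 at 7 days. At 6 months it was 1.48, or 1.12 with the 5 members listed at 0 after sham set to a bound of 3 sham fragments. Members that reach the floor in the tenotomy library alone can raise these medians too. By class, 2 of 5 H1, 3 of 5 H2A, 8 of 12 H2B, 7 of 9 H3 and 7 of 12 H4 members were higher at 6 months. The 4 members higher at 7 days were Hist1h2an, Hist1h3g, Hist2h2ac and Hist1h3a. Of the 43 members measured at both ages, 35 had the larger ratio at 6 months and 8 at 7 days. The same share over all entries is not given here, and members admitted by the tenotomy library alone are included. Nothing about the family is read from this count. Single members rest on few fragments. The counting interval of the ratio lay above 1 for 8 of 44 countable members at 7 days and for 20 of 35 at 6 months that had a fragment in both libraries, and below 1 for 0 members at 7 days and 1 at 6 months. The share of all entries with such an interval was not computed, so these counts have no background beside them and nothing about the family is read from them.

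**Figure D2:**
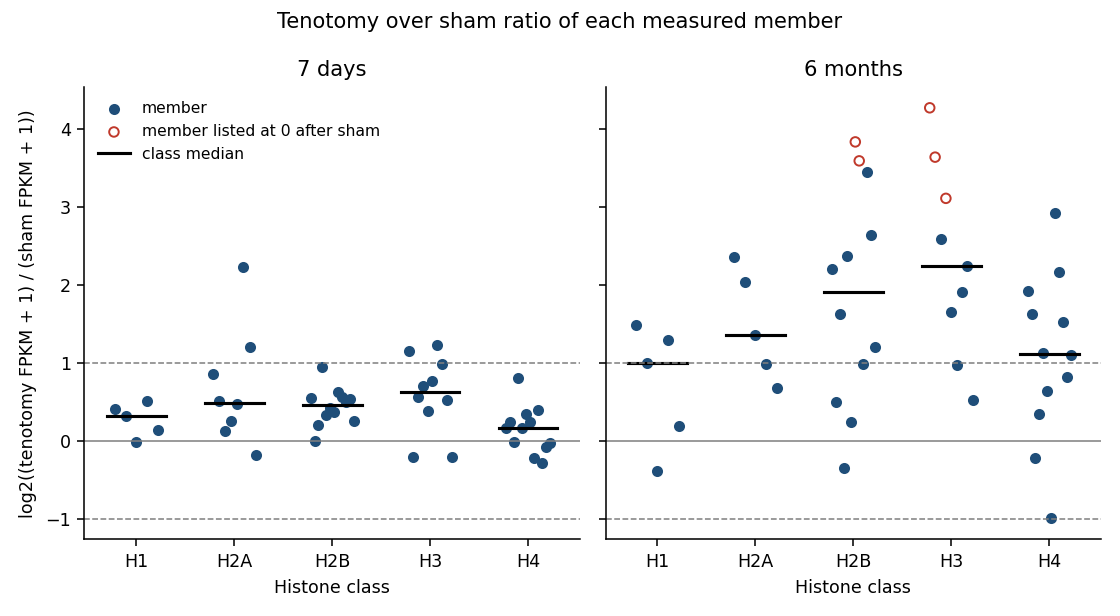
Each point is a member at or above 5 FPKM in either library of that age, placed by class (horizontal axis) and by its log2 ratio of tenotomy over sham FPKM + 1 (vertical axis). Dashed lines mark 2-fold, black lines the class medians and open points members listed at 0 after sham. At 7 days most points lie between 0 and 1, while at 6 months 27 of 43 lie at or above 1 and none at or below -1.

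The H1 genes encode linker histones. Hist1h1c, a member expressed in many somatic tissues, was the highest H1 entry in every library and was not higher after tenotomy. It stood at 114 FPKM after tenotomy and 115 FPKM after sham at 7 days, and at 75.7 FPKM after tenotomy and 99.7 FPKM after sham at 6 months. Its 6-month ratio of 0.760 (0.634 to 0.909) was the only one among the members whose counting interval lay below 1. Hist1h1a had 93.9 FPKM after tenotomy and 70.5 FPKM after sham at 7 days, and 52.3 FPKM after tenotomy and 18.1 FPKM after sham at 6 months. Its ratio was 1.33 (1.04 to 1.71) at 7 days and 2.89 (1.70 to 5.15) at 6 months. Hist1h1b had 75.5 FPKM after tenotomy and 60.6 FPKM after sham at 7 days, and 17.3 FPKM after tenotomy and 8.15 FPKM after sham at 6 months, where 20 fragments after tenotomy and 7 after sham lay behind the values. Hist1h1d had 30.9 FPKM after tenotomy and 21.5 FPKM after sham at 7 days, and 17.6 FPKM after tenotomy and 6.60 FPKM after sham at 6 months. Hist1h1e had 59.9 FPKM after tenotomy and 54.5 FPKM after sham at 7 days, and 28.2 FPKM after tenotomy and 24.7 FPKM after sham at 6 months; its interval in the table is shared with Hist1h2be and its fragments could not be counted. Hist1h1c was thus level or lower after tenotomy while Hist1h1a and Hist1h1d were higher at both ages by more than counting error. Without Hist1h1c the log2 ratio of the H1 sum at 6 months was 0.999 in place of 0.28. Hist1h1t, the testis-specific linker histone, had 1.27 FPKM (3 fragments) after tenotomy and 0 after sham at 7 days, and 0.575 FPKM (1 fragment) after tenotomy and 0 after sham at 6 months.

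Among the H2A genes, which encode a core histone that pairs with H2B, Hist2h2ac was the highest in 3 of 4 libraries. It had 93.1 FPKM after tenotomy and 39.8 FPKM after sham at 7 days, and 56.8 FPKM after tenotomy and 28.2 FPKM after sham at 6 months. Behind these lay 61 fragments after tenotomy and 22 after sham at 7 days, and 27 after tenotomy and 10 after sham at 6 months, and the ratios were 2.34 (1.42 to 3.999) and 2.01 (0.944 to 4.66). It was the only H2A member whose counting interval at 7 days lay above 1. Hist1h2ak had 64.6 FPKM after tenotomy and 46.4 FPKM after sham at 7 days, and 22.8 FPKM after tenotomy and 8.34 FPKM after sham at 6 months, the last from 3 fragments. Hist1h2ab had 26.1 FPKM after tenotomy and 13.9 FPKM after sham at 7 days, and 13.3 FPKM after tenotomy and 1.78 FPKM after sham at 6 months, from 10 fragments after tenotomy and 1 after sham. Its 6-month ratio was 7.44 with an interval of 1.058 to 323. Hist1h2af had 19.5 FPKM after tenotomy and 17.8 FPKM after sham at 7 days, and 14.5 FPKM after tenotomy and 2.78 FPKM after sham at 6 months, with 1 fragment in that sham library. All 3 of these Hist1 members were lowest in the 6-month sham library. Hist1h2an, with the largest fitted ratio at 7 days, rested on 8 fragments after tenotomy and 1 after sham (12.03 FPKM after tenotomy and 1.78 FPKM after sham), a ratio of 6.74 (0.904 to 299).

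H2B, the partner of H2A, was led by Hist2h2bb in every library. Hist2h2bb had 269 FPKM after tenotomy and 225 FPKM after sham at 7 days, and 177 FPKM after tenotomy and 76.2 FPKM after sham at 6 months. None of its 75-base coding windows occurs in another member; matches outside the family or with mismatches were not looked for. Its ratio was 1.19 (0.985 to 1.45) at 7 days and 2.32 (1.62 to 3.39) at 6 months. Hist1h2bn had 60.7 FPKM after tenotomy and 41.6 FPKM after sham at 7 days, and 41.8 FPKM after tenotomy and 5.91 FPKM after sham at 6 months. In fragments the 6-month values were 19 after tenotomy and 2 after sham, a ratio of 7.09 (1.71 to 62.7). Hist1h2bm had 51.1 FPKM after tenotomy and 35.9 FPKM after sham at 7 days, and 41.8 FPKM after tenotomy and 2.95 FPKM after sham at 6 months. There it had 19 fragments after tenotomy and 1 after sham, a ratio of 14.2 (2.25 to 589). Hist1h2bb had 50.6 FPKM after tenotomy and 34.2 FPKM after sham at 7 days, and 40.7 FPKM after tenotomy and 8.11 FPKM after sham at 6 months, where its ratio was 5.02 (1.75 to 19.8). The 3 Hist1 genes thus stood at similar levels in the 6-month tenotomy and 7-day sham libraries and were several-fold lower in the 6-month sham library. Hist1h2bj had 31.9 FPKM after tenotomy and 24.6 FPKM after sham at 7 days, and 13.2 FPKM (6 fragments) after tenotomy and 0 after sham at 6 months. Hist1h2bk had 6.38 FPKM after tenotomy and 3.78 FPKM after sham at 7 days, and 11.0 FPKM (5 fragments) after tenotomy and 0 after sham at 6 months. Against a bound of 3 sham fragments, and with the tenotomy count taken as exact, Hist1h2bj was at least 1.49-fold and Hist1h2bk at least 1.24-fold higher at 6 months. With the counting error of both libraries the lower limits were 0.878 for Hist1h2bj and 0.683 for Hist1h2bk, so a difference was not detectable at this depth. Not all H2B genes were low in the 6-month sham pool: Hist1h2bc had 37.1 FPKM after tenotomy and 26.0 FPKM after sham at 6 months, and 42.1 FPKM after tenotomy and 42.0 FPKM after sham at 7 days. Hist1h2bh had 17.6 FPKM after tenotomy and 14.8 FPKM after sham at 6 months.

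The H3 genes encode the core histone that pairs with H4. Hist1h3c was the highest H3 entry in all 4 libraries. It had 109 FPKM after tenotomy and 73.3 FPKM after sham at 7 days, and 75.2 FPKM after tenotomy and 11.7 FPKM after sham at 6 months. It had 103 fragments after tenotomy and 58 after sham at 7 days, and 52 after tenotomy and 6 after sham at 6 months, and the ratios were 1.48 (1.0645 to 2.08) and 6.45 (2.77 to 18.4). The 6-month sham library was the lowest of the 4 and the 7-day tenotomy library the highest. Hist1h3e had 62.2 FPKM after tenotomy and 47.7 FPKM after sham at 7 days, and 34.2 FPKM after tenotomy and 10.2 FPKM after sham at 6 months, a 6-month ratio of 3.35 (1.10 to 13.6). Hist1h3a had 46.2 FPKM after tenotomy and 20.3 FPKM after sham at 7 days, with a ratio of 2.28 (1.32 to 4.08). At 6 months Hist1h3a had 18.2 FPKM (15 fragments) after tenotomy and was listed at 0 after sham, so that it was at least 3.72-fold higher by the bound of 3 fragments with the tenotomy count taken as exact, and the lower limit with the counting error of both libraries was 2.67. Hist1h3a and Hist1h3g were the only members that reached 5 FPKM and a 2-fold higher value at both ages. Hist1h3g had 21.3 FPKM after tenotomy and 8.5003 FPKM after sham at 7 days, and 9.71 FPKM after tenotomy and 1.87 FPKM after sham at 6 months, where sham held 1 fragment. Hist1h3f had 35.7 FPKM after tenotomy and 20.6 FPKM after sham at 7 days, and 11.7 FPKM after tenotomy and 5.50 FPKM after sham at 6 months. Hist1h3b had 5.53 FPKM after tenotomy and 6.58 FPKM after sham at 7 days, and 11.4 FPKM (6 fragments) after tenotomy and 0 after sham at 6 months, at least 1.49-fold higher by the same bound but with a lower limit of 0.877 for the counting error of both libraries. Hist1h3d had 16.6 FPKM after tenotomy and 9.86 FPKM after sham at 7 days, and 7.61 FPKM (4 fragments) after tenotomy and 0 after sham at 6 months, where the depth could not show a difference.

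H4, the partner of H3, was the most abundant class, and its members differed among themselves. Hist1h4d had 420 FPKM after tenotomy and 241 FPKM after sham at 7 days, and 266 FPKM after tenotomy and 210 FPKM after sham at 6 months, with ratios of 1.74 (1.34 to 2.29) and 1.27 (0.871 to 1.87). Its log2 ratio was thus larger at 7 days (0.80) than at 6 months (0.34), unlike that of most members. Hist1h4c had 187 FPKM after tenotomy and 189 FPKM after sham at 7 days, and 161 FPKM after tenotomy and 187 FPKM after sham at 6 months. Its tenotomy and sham values at each age differed by less than counting error. Hist2h4 had 367 FPKM after tenotomy and 387 FPKM after sham at 7 days, and 226 FPKM after tenotomy and 128 FPKM after sham at 6 months, with ratios of 0.949 (0.768 to 1.17) and 1.76 (1.18 to 2.68). Hist1h4f had 263 FPKM after tenotomy and 235 FPKM after sham at 7 days, and 150 FPKM after tenotomy and 68.4 FPKM after sham at 6 months. The remaining H4 genes of the Hist1 cluster were mostly low in the 6-month sham pool. Hist1h4a had 88.8 FPKM after tenotomy and 22.8 FPKM (5 fragments) after sham at 6 months. Hist1h4k had 44.4 FPKM after tenotomy and 9.12 FPKM (2 fragments) after sham, and Hist1h4j had 41.0 FPKM after tenotomy and 4.56 FPKM (1 fragment) after sham at that age. At 7 days the same genes had 125, 106 and 51.6 FPKM after tenotomy and 112, 80.2 and 60.2 FPKM after sham. Hist1h4i ran the other way at 6 months, with 6.03 FPKM after tenotomy and 12.97 FPKM after sham, from 5 fragments after tenotomy and 8 after sham, a ratio of 0.465 (0.1196 to 1.61).

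**Figure D3:**
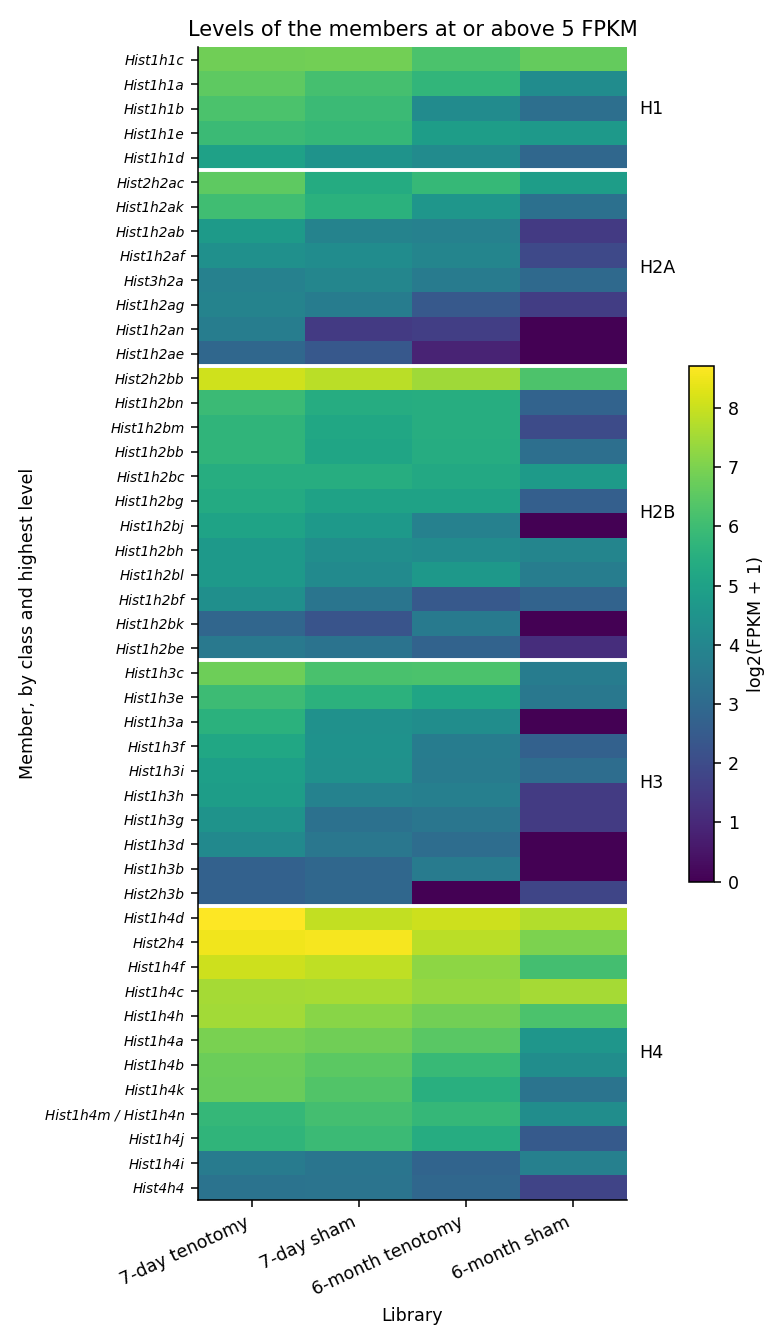
Colour gives log2(FPKM + 1) of the 47 members at or above 5 FPKM in any library (rows, by class and highest level) in the 4 pooled libraries (columns). Darker colours are lower values, and most rows are darkest in the 6-month sham column, while Hist1h1c, Hist1h4c and Hist1h4d keep a similar colour across the columns.

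By position, the Hist1 cluster on chromosome 13 falls into 2 blocks 1487433 bases apart (mm10 as in the authors' table). The block at chr13:21715763-22043610 held 23 entries and the block at chr13:23531044-23934851 held 31. At 6 months the first block had 350 FPKM after tenotomy and 93.8 FPKM after sham, a ratio of 3.70 (2.55 to 5.52), and the second block had 1350 FPKM after tenotomy and 825 FPKM after sham, a ratio of 1.64 (1.40 to 1.92). At 7 days the ratios were 1.25 (1.07 to 1.47) and 1.29 (1.18 to 1.42). The second block holds Hist1h1c, Hist1h4c and Hist1h4d. The Hist2 cluster had 467 FPKM after tenotomy and 238 FPKM after sham at 6 months, and 736 FPKM after tenotomy and 665 FPKM after sham at 7 days, nearly all of it from Hist2h4, Hist2h2bb and Hist2h2ac. Its ratio was 1.96 (1.52 to 2.56) at 6 months and 1.11 (0.963 to 1.27) at 7 days, where the interval included 1. Hist2h3b, the other Hist2 gene to reach 5 FPKM, had 5.53 FPKM after tenotomy and 6.58 FPKM after sham at 7 days (4 fragments each), and 0 after tenotomy and 2.55 FPKM after sham at 6 months. Hist3h2a had 13.3 FPKM after tenotomy and 15.2 FPKM after sham at 7 days, and 11.5 FPKM after tenotomy and 6.82 FPKM after sham at 6 months. The sum of the Hist3 cluster had a ratio of 0.762 (0.506 to 1.16) at 7 days and 1.20 (0.636 to 2.44) at 6 months. Hist4h4, an H4 gene that lies alone, had 9.10 FPKM after tenotomy and 9.33 FPKM after sham at 7 days, and 6.45 FPKM after tenotomy and 2.49 FPKM after sham at 6 months. Its ratio was 0.975 (0.696 to 1.37) at 7 days and 2.59 (1.34 to 5.41) at 6 months.

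Most coding members without signal shared all of their coding windows with another member. Of the 68 entries 10 were at 0 in all 4 libraries and 42 were above 0 in all 4. Hist1h2ba and Hist1h2aa, the testis-type H2B and H2A genes, were among the 10. The coding sequence of each member was read in windows of 75 bases, the read length, and compared with that of every other member. The median member shared 67.1% of its windows with another, and the class medians were 8.76% for H1, 78.1% for H2A, 66.3% for H2B, 74.0% for H3 and 64.3% for H4. Of 9 coding members at 0 in every library, 7 had no window of their own, such as Hist1h2ao and Hist1h2ap, whose coding sequences are identical. Those of Hist1h4n and Hist1h4m are identical too, and their signal is listed under the joint entry. The sources used here do not say how reads that fit several copies were assigned, and the split of signal between near-identical copies is uncertain. Over the 20 members with at most 50% of their windows shared, the sum was 1925 FPKM after tenotomy and 1560 FPKM after sham at 7 days, and 1157 FPKM after tenotomy and 691 FPKM after sham at 6 months. The ratios were 1.23 (1.13 to 1.35) and 1.67 (1.42 to 1.98), against 1.24 (1.12 to 1.38) and 2.16 (1.77 to 2.65) over the 47 members with more sharing. A split by listed model width was made after the values were seen. The 5 countable members over 1000 bases (Hist1h1c, Hist1h1d, Hist1h3f, Hist3h2a and Hist4h4), in which Hist1h1c is the largest, summed to 123 FPKM after tenotomy and 121 FPKM after sham at 6 months, and to 203 FPKM after tenotomy and 181 FPKM after sham at 7 days. Without Hist1h1c the other 4 summed to 47.3 FPKM after tenotomy and 21.4 FPKM after sham at 6 months, so the level sum of the wide models rested on that gene. The 39 members up to 1000 bases that reached 5 FPKM had ratios of 1.26 at 7 days and 1.9999 at 6 months.

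The 7-day pools held more clustered histone mRNA than the 6-month pools after either operation. The 2 tables may have been scaled separately, so levels across ages carry that limit, and each comparison uses a sham or tenotomy library that the comparisons above also use. In sham pools the sum was 2835 FPKM at 7 days and 1169 FPKM at 6 months, a ratio of 2.42 (2.15 to 2.73). In tenotomy pools it was 3506 FPKM at 7 days and 2186 FPKM at 6 months, a ratio of 1.603 (1.48 to 1.74). Of 44 members at or above 5 FPKM in either sham pool, 34 had a 2-fold or higher level at 7 days and 0 a lower one, against 13.1% of all measured entries higher and 6.67% lower. Of 47 members in the tenotomy pools, 16 had a 2-fold or higher level at 7 days and 0 a lower one, against 10.1% of all measured entries higher and 6.61% lower. Here too a member can reach the floor in the 7-day pool alone, and it then always stands higher at 7 days. The median log2 difference was 1.86 in sham pools and 0.76 in tenotomy pools, where all measured entries had 0.25 in both. H3 differed most between the sham pools, by a ratio of 5.24 (3.39 to 8.48), and H1 least, by 2.04 (1.76 to 2.38).

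Promoters are shown because many of these genes were higher together after tenotomy at 6 months and because each class has its own textbook elements. RefSeq promoter windows (GRCm38.p6, 250 bases before to 50 after the start) were found for 61 member symbols and searched on both strands for 4 elements. The TATA box was spelled TATAAA and the CCAAT box CCAAT. The octamer, an element known from H2B genes, was spelled ATTTGCAT. The H1 box was spelled AAACACA. None of these letter strings contains another, and the 27025 windows of all genes served as the background. The TATA box was found in 35 of 61 windows (57.4%, against 14.2% of all windows) and the CCAAT box in 52 (85.2%, against 37.9%). All 49 windows of the H1, H2A, H2B and H3 classes held CCAAT, as did 3 of 12 H4 windows. The octamer was found in 13 windows, 7 of H2A and 6 of H2B genes (21.3% of the members, against 1.75%). The H1 box was found in 5 of 6 H1 windows and in 9 windows in all (14.8%, against 7.14%). The capitals below mark these elements in the windows of an H1, an H2B and an H3 gene whose values stood above sham at 6 months, and of 2 H4 genes, Hist1h4j with a ratio of 8.99 (1.33 to 384) and Hist1h4d with 1.27 at that age.
Hist1h1b: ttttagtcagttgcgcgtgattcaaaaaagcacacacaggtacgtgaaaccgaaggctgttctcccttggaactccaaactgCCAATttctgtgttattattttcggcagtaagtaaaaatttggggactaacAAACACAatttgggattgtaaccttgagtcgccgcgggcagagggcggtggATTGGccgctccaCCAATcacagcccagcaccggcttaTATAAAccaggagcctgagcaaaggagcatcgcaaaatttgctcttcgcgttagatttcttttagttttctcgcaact
Hist1h2bm: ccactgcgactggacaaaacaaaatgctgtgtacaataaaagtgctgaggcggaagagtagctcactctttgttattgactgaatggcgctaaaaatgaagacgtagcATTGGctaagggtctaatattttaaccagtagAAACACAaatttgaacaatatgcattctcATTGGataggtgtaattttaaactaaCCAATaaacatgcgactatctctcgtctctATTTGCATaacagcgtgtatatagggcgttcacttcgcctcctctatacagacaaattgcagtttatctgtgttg
Hist1h3c: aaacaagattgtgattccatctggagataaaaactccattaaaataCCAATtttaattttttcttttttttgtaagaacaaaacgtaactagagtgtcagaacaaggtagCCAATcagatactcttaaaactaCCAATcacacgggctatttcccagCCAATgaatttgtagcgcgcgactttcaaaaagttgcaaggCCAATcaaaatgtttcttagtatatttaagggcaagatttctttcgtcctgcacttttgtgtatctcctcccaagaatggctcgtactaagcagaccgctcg
Hist1h4j: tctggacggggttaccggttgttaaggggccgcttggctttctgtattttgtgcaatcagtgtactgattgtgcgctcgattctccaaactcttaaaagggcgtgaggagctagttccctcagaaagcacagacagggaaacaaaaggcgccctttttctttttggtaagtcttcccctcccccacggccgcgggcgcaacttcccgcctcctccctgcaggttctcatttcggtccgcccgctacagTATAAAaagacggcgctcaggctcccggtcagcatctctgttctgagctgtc
Hist1h4d: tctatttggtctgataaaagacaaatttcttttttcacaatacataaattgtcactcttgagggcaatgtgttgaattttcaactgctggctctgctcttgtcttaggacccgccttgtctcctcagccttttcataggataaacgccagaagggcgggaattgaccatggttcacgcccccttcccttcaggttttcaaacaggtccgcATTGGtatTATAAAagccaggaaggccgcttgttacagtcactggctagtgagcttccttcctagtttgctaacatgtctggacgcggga
The windows lie at chr13:21780576-21780875 (minus strand), chr13:21721794-21722093 (plus strand), chr13:23745472-23745771 (minus strand), chr13:21734784-21735083 (plus strand) and chr13:23581318-23581617 (plus strand). The Hist1h1b window holds CCAAT boxes, an H1 box and a TATA box, and the Hist1h2bm window holds the octamer and an H1 box but no TATA box as spelled here. Hist1h3c has only CCAAT among the 4 elements, in 5 copies. Hist1h4j has only a TATA box, while Hist1h4d has a TATA box and a CCAAT box. A match is a description of letters and not of a bound factor. In 9 cases an H2A and an H2B window overlapped on opposite strands, by 220 to 279 bases. The same site can then count in both windows, so the counts above are of windows and not of separate sites. The octamer is such a site for Hist1h2aa and Hist1h2ba, for Hist1h2ae and Hist1h2bg, and for Hist1h2ah and Hist1h2bk. The H1 box of Hist1h2aa and Hist1h2ba is another. Both genes of a pair reached 5 FPKM in 3 of the 9 pairs at 7 days and in 1 pair at 6 months, that of Hist1h2ak and Hist1h2bn. In that pair both genes were at least 2-fold higher after tenotomy at 6 months, with log2 ratios of 1.35 and 2.63.

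**Figure D4:**
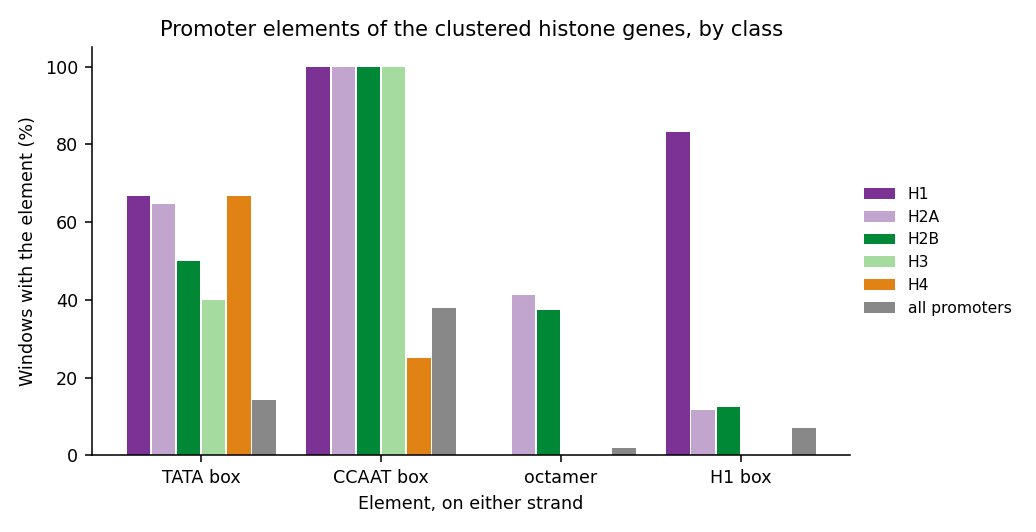
Bars give the percentage of promoter windows that hold each element on either strand (horizontal axis), by histone class and for all promoters. The CCAAT box is in 100% of H1, H2A, H2B and H3 windows and 25% of H4 windows, the octamer in H2A and H2B windows among the classes, and the H1 box in 83.3% of H1 windows.

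At 6 months the lists of other genes of histone supply had smaller median log2 ratios than the clustered genes. The clustered genes had 1.48, or 1.12 with members at 0 after sham set to the bound. Members that reach the floor in the tenotomy library alone can raise such a median, so the comparison of medians carries that limit. The medians were 0.18 for 3′ end processing and decay, 0.99 for transcription (only 2 genes measured) and 0.33 for chaperones and deposition. By the ratio of sums these 3 lists had 1.01, 1.80 and 1.19, against 1.87 for the clustered genes. At 7 days they had 1.07, 1.12 and 1.23, against 1.24. By sums the gap was thus small for transcription at 6 months and for chaperones at 7 days. Slbp, whose protein binds the stem-loop, had 9.55 FPKM after tenotomy and 8.04 FPKM after sham at 7 days, and 8.32 FPKM after tenotomy and 5.42 FPKM after sham at 6 months. Npat, the coactivator of histone gene transcription, had 5.08 FPKM after tenotomy and 3.98 FPKM after sham at 7 days, and 3.57 FPKM after tenotomy and 2.57 FPKM after sham at 6 months. Neither passed 2-fold. Of 18 genes found for histone mRNA 3′ end processing and decay, 0 of 15 measured were at least 2-fold higher or lower at 7 days. At 6 months 2 of 15 were higher, a share near the 9.62% of all measured entries, and they were the U7 particle subunit Lsm10 (11.4 FPKM after tenotomy and 4.51 FPKM after sham) and the cleavage factor Cstf2 (6.15 FPKM after tenotomy and 2.54 FPKM after sham). At 7 days Lsm10 had 12.3 FPKM after tenotomy and 14.9 FPKM after sham, and Cstf2 had 6.10 FPKM after tenotomy and 4.77 FPKM after sham. Of 11 genes of histone gene transcription, 0 of 6 measured passed at 7 days and 1 of 2 at 6 months. Over all measured entries 5.55% were higher at 7 days and 9.62% at 6 months, and 2 genes are too few to set beside that share. The gene at 6 months was the cyclin gene Ccna2, with 13.4 FPKM after tenotomy and 3.40 FPKM after sham (16.6 FPKM after tenotomy and 13.4 FPKM after sham at 7 days). Among 22 histone chaperones and deposition factors, 1 of 19 measured was higher at 7 days, near the 5.55% of all measured entries, and 0 of 17 passed at 6 months. The gene at 7 days was Chaf1b, a subunit of the factor that deposits histones behind the replication fork, with 7.28 FPKM after tenotomy and 1.95 FPKM after sham (2.40 FPKM after tenotomy and 0.647 FPKM after sham at 6 months).

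Replacement variants, most of which are made throughout the cell cycle from polyadenylated mRNAs, served as the contrast to the clustered genes. Of 13 found, 1 of 10 measured was at least 2-fold higher at 7 days and 1 of 9 at 6 months, and 0 were lower at either age, shares not far from those of all measured entries (5.55% and 9.62%). The gene at 7 days was H2afy2, which encodes a macroH2A, with 10.5 FPKM after tenotomy and 3.91 FPKM after sham (4.33 FPKM after tenotomy and 1.62 FPKM after sham at 6 months). The gene at 6 months was Cenpa, which encodes the H3 variant of centromeres, with 14.1 FPKM after tenotomy and 6.33 FPKM after sham (21.6 FPKM after tenotomy and 10.7 FPKM after sham at 7 days). Their median log2 ratio was 0.23 at 7 days and 0.41 at 6 months, against 0.38 at 7 days and 1.48 at 6 months (1.12 at the bound) for the clustered genes. These medians carry the limit of the floor given above. By the ratio of sums the gap was smaller, with 1.10 at 7 days and 1.43 at 6 months for the variants, against 1.24 and 1.87 for the clustered genes. H3f3a, which encodes the replacement H3, had 360 FPKM after tenotomy and 355 FPKM after sham at 7 days, and 233 FPKM after tenotomy and 175 FPKM after sham at 6 months. H3f3b, which encodes the same protein, had 177 FPKM after tenotomy and 139 FPKM after sham at 7 days, and 117 FPKM after tenotomy and 62.8 FPKM after sham at 6 months. H2afz had 152 FPKM after tenotomy and 127 FPKM after sham at 7 days, and 149 FPKM after tenotomy and 78.8 FPKM after sham at 6 months. H2afx, whose protein marks DNA breaks and whose mRNA is known in a stem-loop form as well as a polyadenylated one, had 20.9 FPKM after tenotomy and 12.1 FPKM after sham at 7 days, and 8.85 FPKM after tenotomy and 7.64 FPKM after sham at 6 months. H1f0, the linker histone of resting and differentiated cells, had 91.6 FPKM after tenotomy and 111 FPKM after sham at 7 days, and 38.0 FPKM after tenotomy and 55.5 FPKM after sham at 6 months. H1f0 was thus lower after tenotomy at both ages, short of 2-fold.

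Of 44 DNA replication genes listed, 0 of 34 measured were at least 2-fold higher or lower at 7 days, with a median log2 ratio of 0.43. At 6 months 9 of 29 were higher and 0 lower, with a median of 0.75. Of all measured entries 5.55% were higher and 10.3% lower at 7 days, and 9.62% higher and 11.9% lower at 6 months. The largest ratios at 6 months were those of Tk1 (nucleotide supply), with 12.8 FPKM after tenotomy and 2.92 FPKM after sham, and Gins2 (replicative helicase), with 9.29 FPKM after tenotomy and 1.98 FPKM after sham. Next were Uhrf1 (copying of DNA methylation), with 7.53 FPKM after tenotomy and 1.49 FPKM after sham, and Mcm4 (helicase), with 7.29 FPKM after tenotomy and 2.13 FPKM after sham. At 7 days Tk1 had 13.7 FPKM after tenotomy and 11.7 FPKM after sham, and Gins2 had 9.38 FPKM after tenotomy and 8.78 FPKM after sham. At that age Uhrf1 had 10.2 FPKM after tenotomy and 5.87 FPKM after sham, and Mcm4 had 10.3 FPKM after tenotomy and 4.85 FPKM after sham. Pcna, the sliding clamp of the replication fork, had 60.9 FPKM after tenotomy and 48.8 FPKM after sham at 7 days, and 52.3 FPKM after tenotomy and 24.5 FPKM after sham at 6 months. Of 24 mitosis and proliferation genes, 2 of 21 measured were higher at 7 days (Plk1 and Birc5) and 12 of 15 at 6 months, with medians of 0.82 and 1.53. The 7-day count of this list is not far from the 5.55% of all measured entries. By the ratio of sums this list had 1.79 at 7 days and 3.56 at 6 months, above the 1.24 and 1.87 of the clustered genes. Mki67 had 19.2 FPKM after tenotomy and 13.4 FPKM after sham at 7 days, and 12.1 FPKM after tenotomy and 3.94 FPKM after sham at 6 months. Top2a, the topoisomerase of dividing cells, had 26.5 FPKM after tenotomy and 14.2 FPKM after sham at 7 days, and 16.9 FPKM after tenotomy and 3.43 FPKM after sham at 6 months. Both were lowest in the 6-month sham pool, like the histone sum. Plk1 and Birc5, a mitotic kinase gene and the survivin gene, had 8.20 and 11.1 FPKM after tenotomy and 2.60 and 4.78 FPKM after sham at 7 days, and 4.11 and 6.96 FPKM after tenotomy and 1.11 and 1.43 FPKM after sham at 6 months. Aurkb, another mitotic kinase gene, had 9.34 FPKM after tenotomy and 5.50 FPKM after sham at 7 days, and 7.72 FPKM after tenotomy and 1.58 FPKM after sham at 6 months. Cks2, a partner of cyclin-dependent kinases, had 15.8 FPKM after tenotomy and 8.81 FPKM after sham at 7 days, and 14.0 FPKM after tenotomy and a listed 0 after sham at 6 months.

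**Figure D5:**
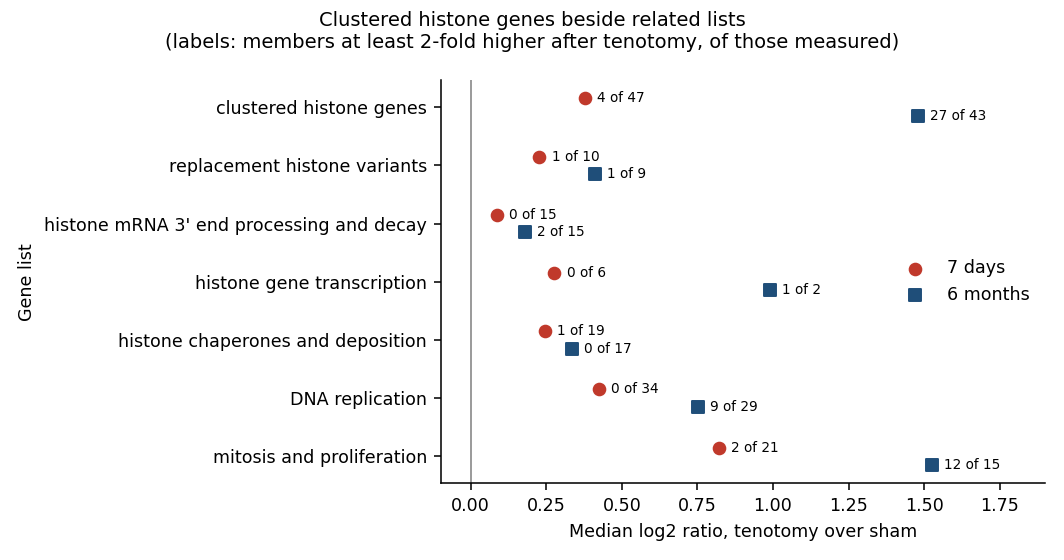
Points give the median log2 ratio of tenotomy over sham (horizontal axis) of the measured members of each list (vertical axis) at 7 days (circles) and 6 months (squares), and labels the number at least 2-fold higher of those measured. The clustered histone genes (0.38 and 1.48) and the mitosis list (0.82 and 1.53) have the highest medians at 6 months. A gene can reach the floor in the tenotomy library alone, which can raise a median.

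Over the 4 libraries the profile of the histone sum was most like that of 8 genes among 10016 single-symbol entries at or above 5 FPKM in any library, by Euclidean distance between centred log2(FPKM + 1) values. They were Arhgap11a, Myl12b, St5, Nhsl2, Fnbp1l, Coro1c, Phf6 and Gatad2a, at distances of 0.0357 to 0.111. Arhgap11a had 7.98 FPKM after tenotomy and 6.06 FPKM after sham at 7 days, and 4.62 FPKM after tenotomy and 1.96 FPKM after sham at 6 months. With only 4 values a close profile is easily met, and nothing is read from it.

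The authors' deposited table calls 0 of the 68 histone entries significant at either age, beside 90 of 23351 entries (0.385%) at 7 days and 0 (0%) at 6 months. In the authors' deposited table the lowest p-value of a member was 0.159 at 7 days and 0.00015 at 6 months, and the second came with a q-value of 0.167.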

How the data were processed

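Total RNA (10 ng, RIN below 8) of each pool was depleted of ribosomal RNA, made into strand-specific libraries and sequenced as paired reads of 75 bases, per the labels' protocols. TopHat, Cufflinks and the mm10 build are named, without versions, in the submitters' processing notes; the annotation and the treatment of reads that match several copies are not stated there. Per the file headers, the authors' tables list FPKM per gene for both libraries of an age, with the p-value and q-value of the authors' own comparison. Those p-values hold no spread between animals, since each group is 1 pooled library.

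From the deposited FPKM, log2((tenotomy + 1)/(sham + 1)) was computed, with a floor of 5 FPKM in either library and a 2-fold threshold. Ratios of histone sums added the same 1 FPKM to each sum. Ratios of single members with a counting interval, and ratios of sums of the other gene lists, used FPKM without the added 1. Whole fragments were recovered from the steps of low FPKM values, of which 97.9% to 99.2% were whole within 0.1 of a fragment; intervals are 95% Clopper-Pearson intervals on those fragments and cover counting error only. Sums of 64 countable members set the interval of a sum over 68. No test was made, and the scripts were tested on simulated data. Columns not used numbered 0. Gene coordinates are those of the deposited tables (mm10); GENCODE M21 gave transcripts and RefSeq gave promoters, both on GRCm38.

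Genes were named by a rule: the 4 highest members of each class, up to 6 members with the largest ratio past 2-fold at each age, Hist2 to Hist4 members at the floor, testis types, 10 set genes outside the family, and up to 4 genes past 2-fold of each pathway list. Further members named (Hist1h1d, Hist1h2bc, Hist1h2bh, Hist1h4a, Hist1h4i, Hist1h4j and Hist1h4k) were chosen after their values were seen. The members and lists were chosen with earlier results of these data known. The computations used Python 3.11.15 with SciPy 1.17.1, pandas 2.3.3 and NumPy 2.4.6, and the figures matplotlib 3.10.9.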

Additional observations from a re-analysis of the deposited data

Results flagged for a closer look

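For 4 members that reached 5 FPKM at both ages, the tenotomy value lay below sham at 7 days and above it by at least 2-fold at 6 months. The log2 ratio at 7 days minus that at 6 months was -3.85 for Hist1h3b, -3.14 for Hist1h4j, -1.81 for the joint entry of Hist1h4m and Hist1h4n, and -1.13 for Hist4h4. At 7 days the counting interval of the tenotomy to sham ratio included 1 for all 4: 0.157 to 4.51 for Hist1h3b, 0.445 to 1.65 for Hist1h4j, 0.514 to 1.31 for the joint entry and 0.696 to 1.37 for Hist4h4. The value for Hist1h3b depends on the added 1 FPKM, since sham at 6 months is at 0. The difference was not tested, since each group is 1 library. Hist1h3b rested on 4 fragments in each 7-day library and on 6 after tenotomy and 0 after sham at 6 months. Hist1h4j had 21 fragments in each 7-day library and 12 after tenotomy and 1 after sham at 6 months. Hist4h4 had the most fragments of the 4 entries, with 80 after tenotomy and 67 after sham at 7 days, and 42 after tenotomy and 12 after sham at 6 months.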

How the results depend on the processing

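No direction of a summed ratio, overall or by class, was turned by any alternative run. Rescaling to a common sum of all FPKM gave log2 ratios at 7 days of 0.47 for all members, 0.39 for H1 and 0.38 for H4, 7 members higher and 785 of all entries higher. Leaving muscle, hair, small RNA and mitochondrial entries out of that sum gave 1.13 for all members at 6 months and 1335 of all entries higher. Taking the median of the members' ratios in place of the ratio of sums gave, at 6 months, 1.48 for all members, 0.999 for H1, 1.91 for H2B and 1.11 for H4, and -1.10 for the difference between ages. Without Hist1h1c the H1 log2 ratio at 6 months was 0.999. With no floor, 4 members were at least 2-fold lower at 7 days and 2 at 6 months, where 1333 of all entries were higher; a pseudocount of 0.1 made 1 member lower at 6 months. A pseudocount of 5 left 255 of all entries higher at 7 days, and 420 higher and 619 lower at 6 months. A floor of 20 FPKM left 15 members higher at 6 months; of all entries it left 276 higher and 540 lower at 7 days, and 354 higher and 622 lower at 6 months. By the authors' deposited call 0 members were called at either age, against 3 of all entries higher and 87 lower at 7 days, and 0 higher and 0 lower at 6 months. The numbers measured without a floor, at a floor of 20 FPKM and after rescaling are not given here, so no share can be set beside those counts. The cause of these shifts was not tested.

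Sums over countable members, counts over members with at least 10 fragments, and sums over members with at most 50% of their windows shared were added after seeing the data. No H3 member had so little sharing, so that alternative gave no H3 value. With at least 10 fragments in the pair of libraries, 3 of 40 members passed 2-fold at 7 days and 20 of 33 at 6 months, all higher. The share of all entries under that filter is not given here, so nothing about the family is read from these counts. Of the values for single genes, 34 moved with the pseudocount and 526 did not under the alternatives run. No paired analysis was possible because each group is 1 library. Depth limits single members most in the 6-month sham library.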
